A study of Mus musculus with 8 samples.

Results

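Cells kept under Th17 conditions and cells kept under Treg conditions were compared, as 1 set of 4 libraries, with 2 libraries of Th0 cells, and genes were sought that had moved the same way in both. These 6 libraries are part of a series of 8, in which the other two hold naive cells. All cells were CD4+ T cells from the spleen of C57BL/6 mice, a common inbred strain, with a wild type genotype throughout. Th0 cells had been activated for 3 days with antibodies to CD3 and CD28, which stand in for antigen and costimulation. Th17 and Treg cells had been cultured for 3 days under conditions named only for the cell type they are meant to give. The cytokines, antibodies and media of those conditions are not described in the labels, nor is the purity of the starting cells. Naive cells were taken from the spleen without culture. Their levels are given as a reference, and their libraries also enter the filter on low counts, the scaling and the shared estimate of spread. Each group has 2 libraries, and no label tells whether they derive from different mice or cultures. The p-values therefore measure only how far these libraries spread, and that spread may be technical.

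Th0 cells divide and make little of any one lineage's cytokines, because no polarizing cytokine is added in the usual protocol. TGF-beta is a standard ingredient of both Th17 and Treg cultures: with IL-6 it induces IL-17, and with IL-2 it induces Foxp3, the factor that defines regulatory T cells.

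Total counts ran from 12504463 to 16584279 in the 6 libraries compared, and libraries of a group correlated at 0.9893 to 0.9917 (Pearson r of log2 levels across genes, which are not independent). The labels were checked against lineage genes. Foxp3 was high only in the Treg libraries among the cultured ones, at 5.94 and 4.7 CPM in Th0, 9.93 and 5.91 under Th17 and 317 and 269.7 under Treg conditions. The cytokine gene Il17a, a mark of Th17 cells, was as far above Th0 in the Treg libraries as in the Th17 libraries (values below). Levels here and below are in CPM, the count relative to the library total after TMM scaling, and each pair of values is in the order of the replicate numbers (1 and 3 for Th0, 2 and 3 for Th17 and Treg, 1 and 2 for naive). The T cell receptor genes were abundant in every library, and Cd4 measured 866 and 885 CPM in Th0, 763 and 837 under Th17 and 713 and 821 under Treg conditions.

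Of 14690 genes tested, 2776 were higher and 2353 lower in all 4 differentiated libraries than in both Th0 libraries with an edgeR adjusted p under 0.05 for the mean of Th17 and Treg against Th0. That is 18.9% and 16.0% of the genes tested, the shares beside which the counts of list members below stand. A list near both shares is not read as a result about its members. A gene meeting this rule is called a shared rise or fall, and a gene whose levels are given below met it unless stated otherwise. Groups that do not overlap are part of the rule and are not repeated at each gene. It does not ask that each condition passes by itself, and both conditions are compared with the same Th0 libraries. The number fell to 1557 higher and 1280 lower when each condition had to pass alone in the same direction. It fell to 788 and 692 when the 4 libraries were fitted as 1 group without the naive libraries (13512 genes tested), which counts the distance between Th17 and Treg as error. Shared rises had a median log2 fold change of 0.89 (quartiles 0.55 and 1.60) and shared falls one of -0.58 (quartiles -0.88 and -0.42). Changes of at least 2-fold in both conditions were found for 921 rises (6.27% of genes tested) and 255 falls (1.74%). With RLE scaling the split turned from 54.1% to 48.0% rises, so the balance of rises and falls is not read as a result. The median over all genes tested was 0.07.

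At the edge of the rule, 505 higher and 433 lower genes passed the test on the mean while at least 1 library overlapped Th0. The opposite case, all 4 libraries beyond Th0 with an adjusted p that missed the threshold, held for 761 higher and 607 lower genes. By gene type, 2623 of the shared rises and 2127 of the shared falls were protein-coding genes.

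The steepest shared rises were cytokine genes of the IL-17 locus, complement genes, chemokines and genes of arginine use. They are the 12 shared genes with the largest change in whichever condition changed less, at a mean of at least 10 CPM. Cfb, complement factor B, had no count in either Th0 library and measured 7.75 and 8.79 CPM under Th17 and 13.2 and 10.9 under Treg conditions. Taking 3 counts per Th0 library as the limit, it was at least 47.4-fold higher in the 4 libraries together. C3, the central complement protein, measured 0.792 and 0.77 CPM in Th0, 25.8 and 28.9 under Th17 and 54.1 and 54.9 under Treg conditions, a log2 fold change of the mean of 5.61 ± 0.20 SE at an edgeR adjusted p of 1e-06. Both complement genes were higher still in the naive libraries, at 18.98 and 17.1 CPM for Cfb and 124 and 97.5 for C3.

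Cd5l, a secreted scavenger receptor family protein that Th17 cells and macrophages can make, measured 0.264 and 0 CPM in Th0, 14.6 and 14.5 under Th17 and 26.99 and 26.98 under Treg conditions. The chemokine gene Ccl9 measured 0.198 and 0.154 CPM in Th0, 12.9 and 13.4 under Th17 and 34.2 and 33.4 under Treg conditions, and its neighbour in the family Ccl6 measured 0.396 and 0.154 CPM in Th0, 10.7 and 13.6 under Th17 and 42.3 and 39.8 under Treg conditions. In all 3 genes the Treg libraries lay above the Th17 libraries (Ccl6, Th17 minus Treg -1.76 ± 0.18 SE in log2, edgeR adjusted p = 0.00022). Arg1, which encodes arginase, had 1 count in the Th0 libraries together and 951 in the 4 others, a ratio of 457 (95% exact interval 81.8 to 18100, counting error only). Slc7a2, a transporter of arginine and other cationic amino acids, had 2 against 636 counts, a ratio of 153 (42.1 to 1260). In both arginine genes the Treg libraries lay above the Th17 libraries, at 28.0 and 31.8 against 2.64 and 4.85 CPM for Arg1 and 15.1 and 17.3 against 5.46 and 6.51 for Slc7a2. The naive libraries held 219.7 and 222 CPM of Cd5l, 31.5 and 38.7 of Ccl6 and 8.72 and 14.0 of Ccl9. Of the arginine genes they held 8.14 and 8.02 CPM of Slc7a2 and 0.385 and 0.477 of Arg1. Arg1 was thus lower in naive cells than in any Th17 or Treg library. Markers of myeloid cells, described further below, summed to more than in Th0 in the naive, Th17 and Treg libraries. Their part in these rises was not tested. In bulk RNA, a change in the number of cells of a type and a change in RNA per cell cannot be told apart.

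Kit, the receptor for stem cell factor, measured 9.44 and 11.01 CPM in Th0, 164 and 202 under Th17 and 197 and 203 under Treg conditions, with 77.8 and 67.7 CPM in naive cells. Its log2 fold change was 4.23 ± 0.14 SE at an edgeR adjusted p of 8.3e-07, made up of 4.17 in Th17 and 4.29 in Treg. Pdpn, the membrane glycoprotein podoplanin, measured 0.264 and 0.539 CPM in Th0, 15.7 and 9.39 under Th17 and 8.84 and 8.51 under Treg conditions, with 0.0482 and 0 CPM in naive cells. Sirpa, an inhibitory receptor for CD47 best known from myeloid cells, measured 0.858 and 0.924 CPM in Th0, 17.6 and 14.4 under Th17 and 26.1 and 22.2 under Treg conditions, with 373 and 341 in the naive libraries. Kit and Pdpn thus stood above both Th0 and naive levels, whereas Sirpa stood between them.

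**Figure D1:**
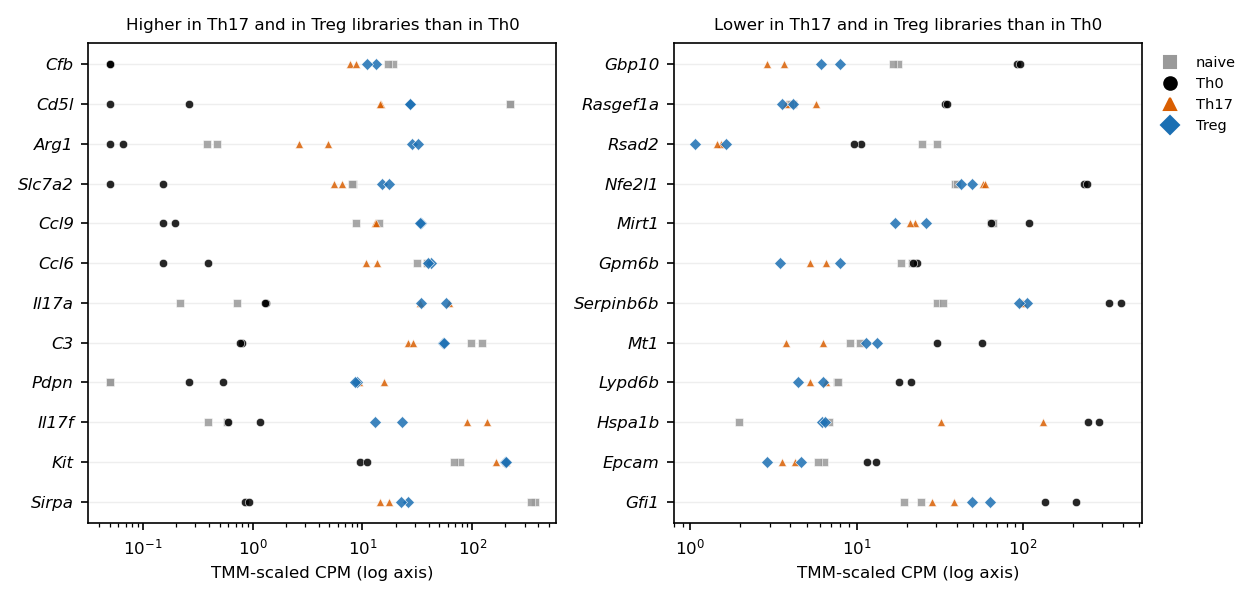
Level of each leading shared gene in every library, in TMM-scaled CPM on a log axis (values under 0.05 are drawn at 0.05), with 12 rises on the left and 12 falls on the right. Each point is 1 library, and points may cover each other; the Th0 points (black circles) lie apart from all 4 Th17 and Treg points in each row, as the rule requires, and Il17a and Kit show Th17 and Treg points together.

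Among Th17 genes, 20 of 27 tested were shared rises and 1 was a shared fall, with a median log2 fold change of 1.38 (1.66 in Th17 and 1.06 in Treg). Il17a and Il17f, neighbouring genes for cytokines that recruit neutrophils (GRCm38 chr1:20730905-20790617), rose to unlike degrees. Il17a measured 1.32 and 1.31 CPM in Th0, 60.9 and 33.7 under Th17 and 57.4 and 34.3 under Treg conditions. The Th17 and Treg values overlapped, and replicate 2 was the higher library in both conditions. The log2 fold change of the mean was 5.14 ± 0.43 SE at an edgeR adjusted p of 5.7e-05, and Th17 minus Treg was 0.05 ± 0.32 SE in log2, edgeR adjusted p = 0.94. Il17f measured 0.594 and 1.15 CPM in Th0, 136 and 89.5 under Th17 and 22.99 and 12.95 under Treg conditions, and each Th17 library exceeded each Treg library (Th17 minus Treg 2.64 ± 0.29 SE in log2, edgeR adjusted p = 0.00028).

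Other Th17 genes also stood higher under Th17 than under Treg conditions while still exceeding Th0 in both. Il22, a cytokine that acts on epithelia, measured 0.132 and 0.308 CPM in Th0, 22.8 and 21.6 under Th17 and 3.93 and 1.23 under Treg conditions (Th17 minus Treg 3.08 ± 0.41 SE in log2, edgeR adjusted p = 0.00076). Ccr6, the receptor for CCL20 carried by Th17 cells, measured 1.58 and 1.54 CPM in Th0, 55.5 and 41.4 under Th17 and 18.6 and 19.9 under Treg conditions (Th17 minus Treg 1.34 ± 0.16 SE in log2, edgeR adjusted p = 0.00048). Il1r1, the receptor that lets Th17 cells respond to IL-1, measured 1.45 and 1.69 CPM in Th0, 36.2 and 29.2 under Th17 and 5.5 and 6.36 under Treg conditions (Th17 minus Treg 2.47 ± 0.24 SE in log2, edgeR adjusted p = 0.00015). The nuclear receptor gene Rora (1.19 and 0.10) and the cytokine gene Il21 (2.27 and -1.39) were not shared. Hif1a was the 1 shared fall, mostly in Treg (-0.20 in Th17 and -1.16 in Treg). Without Th0 replicate 1, Th0 replicate 3 or Treg replicate 2 there were 2 falls in the list.

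Genes of TGF-beta signalling had 14 shared rises and 2 shared falls among 33 tested, with a median log2 fold change of 0.49. Some inhibitors of the pathway were among the rises. Skil, a SMAD corepressor, measured 30.8 and 24.6 CPM in Th0, 74.5 and 92.6 under Th17 and 97.3 and 99.7 under Treg conditions (log2 fold change 1.71 ± 0.21 SE at an edgeR adjusted p of 0.00031). Pmepa1, a membrane protein that retains SMADs, measured 23.9 and 19.4 CPM in Th0, 51.9 and 50.98 under Th17 and 74.6 and 69.1 under Treg conditions. The inhibitory SMAD gene Smad7 was a shared rise, with log2 fold changes of 0.45 in Th17 and 0.65 in Treg. Furin, the protease that matures TGF-beta precursor, measured 94.5 and 101 CPM in Th0, 421 and 349 under Th17 and 249.6 and 232 under Treg conditions, and Tgfb1, the ligand, measured 89.1 and 88.9 CPM in Th0, 176 and 166 under Th17 and 259 and 258 under Treg conditions. The receptor gene Tgfbr1 was not shared, with log2 fold changes of -0.38 in Th17 and 0.54 in Treg. Smad4, the SMAD that partners the receptor-activated ones, was a shared fall at -0.17 in Th17 and -0.43 in Treg, a call that ended with the replicate block and without either Th0 library, Th17 replicate 2 or Treg replicate 2 (edgeR adjusted p = 0.0585 to 0.116). The 2 falls, Smad4 and the repressor Tgif1, became 1 when either Th0 library, Th17 replicate 2 or Treg replicate 2 was left out. In 2 weakly expressed genes the rise was steep. Tgfbi, an extracellular matrix protein, was at 0 in Th0 with 76 counts in the 4 libraries, at least 6.31-fold higher. It stood far higher in the naive libraries (129.7 and 127 CPM), which also held many markers of other cell types (sums below). Acvr1, a type I receptor of the family, measured 0.396 and 0.77 CPM in Th0, 3.76 and 3.26 under Th17 and 2.69 and 3.45 under Treg conditions.

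Receptors and integrins place T cells in tissues. Of 28 chemokine receptor and integrin genes tested, 11 were shared rises and 1, Itgb3, was a shared fall; without Th0 replicate 1 or Treg replicate 2 there were 3 falls, and without Th0 replicate 3 there were 2. Itgae, the integrin CD103 that holds T cells to epithelium and is induced by TGF-beta, measured 5.61 and 4.77 CPM in Th0, 16.3 and 14.6 under Th17 and 61.4 and 55.9 under Treg conditions. The Treg rise exceeded the Th17 rise (Th17 minus Treg -1.92 ± 0.13 SE in log2, edgeR adjusted p = 2.7e-05). Gpr15, which guides T cells to the colon, measured 1.25 and 1.46 CPM in Th0, 8.4 and 8.18 under Th17 and 12.1 and 16.2 under Treg conditions. Ccr4 measured 27.5 and 20.9 CPM in Th0, 60.2 and 45.9 under Th17 and 47.2 and 48.5 under Treg conditions, and Cxcr4 measured 41.5 and 37.1 CPM in Th0, 89.8 and 109 under Th17 and 72.1 and 60.3 under Treg conditions.

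Of 25 Treg genes, 15 were shared rises and 2 shared falls, and the median log2 fold change was 0.91 (0.59 in Th17 and 1.32 in Treg). Foxp3 was not among them, since Th17 replicate 3 lay at 5.91 CPM beside 5.94 and 4.70 in Th0. Ikzf4, the Ikaros family protein Eos that works with Foxp3, measured 17.7 and 14.2 CPM in Th0, 55.9 and 68.8 under Th17 and 137 and 127 under Treg conditions. Il2ra, the high-affinity IL-2 receptor chain, measured 324 and 307 CPM in Th0, 830.0 and 632 under Th17 and 1236 and 1157 under Treg conditions (log2 fold change 1.57 ± 0.11 SE at an edgeR adjusted p of 2.7e-05). The ectoenzymes that turn ATP into adenosine rose, Entpd1 by a log2 fold change of 1.03 in Th17 and 1.33 in Treg and Nt5e by one of 0.68 in Th17 and 1.32 in Treg. Il10, an anti-inflammatory cytokine, rose further under Th17 conditions, at 1.65 in Th17 and 0.77 in Treg (Th17 minus Treg 0.89 ± 0.23 SE in log2, edgeR adjusted p = 0.019). The shared falls were Tigit (-0.83 in Th17 and -0.49 in Treg), an inhibitory receptor, and Izumo1r (-1.28 in Th17 and -0.26 in Treg), a folate receptor family gene whose call ended with upper-quartile scaling, where a library overlapped Th0.

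The IL-2 axis moved unevenly. Of 17 genes, 6 were shared rises and 3 shared falls. The receptor chain gene Il2rb was a shared rise like Il2ra, but mostly in Treg, at 0.17 in Th17 and 1.09 in Treg. The feedback inhibitors Socs1 (1.12 in Th17 and 1.01 in Treg) and Socs2 (1.62 in Th17 and 3.11 in Treg) rose too. The kinase Jak1 (-0.50 in Th17 and -0.46 in Treg) and the transcription factor Stat5b (-0.25 in Th17 and -0.62 in Treg) fell, Stat5b mostly in Treg. Il2 itself measured 3.04 and 3.08 CPM in Th0, 2.23 and 0.682 under Th17 and 0.131 and 0.767 under Treg conditions, a shared fall at counts so low that the call ended without either Th0 library, without Treg replicate 2 and with the replicate block (log2 fold change -1.50 to -1.96, edgeR adjusted p = 0.064 to 0.0888).

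Among TNF superfamily genes, 3 of 18 were shared rises (5 without Treg replicate 2) and 4 were shared falls. These are 16.7% and 22.2%, beside 18.9% and 16.0% of all genes tested. Tnfsf11, the cytokine RANKL, measured 1.45 and 1.46 CPM in Th0, 11.1 and 4.92 under Th17 and 14.6 and 17.7 under Treg conditions. Fas, the death receptor, fell and measured 120.2 and 121 CPM in Th0, 81.01 and 106 under Th17 and 46.6 and 43 under Treg conditions. Of 16 checkpoint genes, 5 were shared rises and 2 shared falls (1 without Th0 replicate 1, either naive library or either Treg library). Pdcd1, which encodes PD-1, measured 7.13 and 6.01 CPM in Th0, 17.4 and 11.1 under Th17 and 46.4 and 37.5 under Treg conditions, and Ctla4 measured 426 and 421 CPM in Th0, 606 and 498 under Th17 and 783 and 819.9 under Treg conditions.

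Th1 genes split. Of 30 tested, 9 were shared rises (5 without Th0 replicate 3) and 6 were shared falls. Tbx21, the master regulator T-bet, measured 54.7 and 54.3 CPM in Th0, 22.2 and 23.5 under Th17 and 28.6 and 24.7 under Treg conditions, a log2 fold change of -1.14 ± 0.10 SE at an edgeR adjusted p of 6.6e-05. The IL-12 signalling genes Stat4 (-0.33 in Th17 and -0.40 in Treg) and Il12rb2 (-0.28 in Th17 and -0.54 in Treg) were shared falls, as was the kinase Txk (-0.75 in Th17 and -1.06 in Treg). Tnf and Lta, neighbouring cytokine genes, rose, with Lta at 6.93 and 5.77 CPM in Th0, 27.2 and 21.9 under Th17 and 45.5 and 35.6 under Treg conditions. Ifng, the Th1 cytokine, was not shared, because it measured 9.51 and 9.93 CPM in Th0, 5.99 and 3.94 under Th17 and 60.7 and 32.1 under Treg conditions.

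Cytotoxic genes held 2 shared rises and 4 shared falls among 21 (1 rise without Th0 replicate 3). Serpinb6b, an intracellular protease inhibitor, measured 388 and 330.5 CPM in Th0, 98.8 and 100.2 under Th17 and 106 and 94.6 under Treg conditions, and the pore protein gene Prf1 measured 20.9 and 16.7 CPM in Th0, 11.04 and 6.59 under Th17 and 6.35 and 7.9 under Treg conditions. Gzmb, the protease granzyme B, went opposite ways at 345 and 326 CPM in Th0, 48.5 and 42.6 under Th17 and 560.4 and 461 under Treg conditions. Th2 genes had 6 shared rises and 4 shared falls among 19. Il24 led the rises at 4.36 and 4.31 CPM in Th0, 82.2 and 75.9 under Th17 and 15.7 and 18.7 under Treg conditions. Il4 and Areg were called falls at low counts, and the edgeR adjusted p rose to at most 0.111 for Il4 and 0.121 for Areg when single libraries were left out. Without Th0 replicate 1 the call of Epas1, another fall in the list, was lost as well (log2 fold change -0.625). The falls in the list were fewer without either Th0 library or without Treg replicate 2. Follicular helper genes had 2 shared rises and 5 shared falls among 17. Tcf7 (-0.21 in Th17 and -1.06 in Treg) and Bcl6 (-0.54 in Th17 and -2.14 in Treg), factors of that lineage, fell, both mostly in Treg. Without Th0 replicate 3 the falls were 3, and without Th0 replicate 1 there was 1 rise.

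Components of the T cell receptor and its first kinases were lower in both conditions. Of 19 pan T cell genes, 9 were shared falls and 1, Thy1, was a shared rise, and the median log2 fold change was -0.28. Zap70, the kinase that binds the stimulated receptor, measured 488 and 434 CPM in Th0, 217 and 229 under Th17 and 233 and 237 under Treg conditions (log2 fold change -1.01 ± 0.07 SE at an edgeR adjusted p of 2.7e-05). Cd28, the costimulatory receptor, measured 655 and 705 CPM in Th0, 356 and 369 under Th17 and 356 and 368 under Treg conditions. Cd3e measured 375 and 358 CPM in Th0, 167 and 193 under Th17 and 262 and 269.7 under Treg conditions, and the adaptor Lat measured 314 and 290.3 CPM in Th0, 164 and 175 under Th17 and 252 and 248 under Treg conditions. The Treg values of Cd3e and Lat lay between those of Th17 and Th0. Summed over the list, levels were 7575 and 7167 CPM in Th0, 5494 and 5556 under Th17 and 6951 and 7150 under Treg conditions.

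Immediate targets of receptor signalling had no common direction. Among Nr4a, Egr and NFAT genes, 4 of 18 were shared rises and 5 shared falls. Nr4a3, a nuclear receptor induced by antigen receptor signals, measured 308 and 268 CPM in Th0, 33.7 and 31.7 under Th17 and 229 and 209 under Treg conditions, a deeper fall under Th17 conditions (Th17 minus Treg -2.74 ± 0.35 SE in log2, edgeR adjusted p = 0.00062). Egr3 rose (1.32 in Th17 and 1.00 in Treg) and Nfatc1 fell (-0.67 in Th17 and -0.37 in Treg). Of 16 AP-1 family genes, 3 were shared rises and 5 shared falls. Jund (1.16 in Th17 and 1.56 in Treg), Junb (1.17 in Th17 and 0.60 in Treg) and Batf3 (1.90 in Th17 and 1.56 in Treg) rose. Bach1, a repressor of the heme oxygenase gene Hmox1, measured 60.5 and 63.3 CPM in Th0, 32.7 and 29.2 under Th17 and 34.7 and 38.8 under Treg conditions. In the NF-κB list 3 of 18 rose (16.7%) and 3 fell (16.7%, and 5 genes without Th0 replicate 1), near the shares among all genes tested. Nfkb2 measured 115 and 112 CPM in Th0, 271 and 261 under Th17 and 196 and 175 under Treg conditions and its inhibitor Nfkbie 24.9 and 28.6 CPM in Th0, 96.1 and 88.3 under Th17 and 60.8 and 61.3 under Treg conditions, whereas Tnip3, another inhibitor of the pathway, measured 118 and 104 CPM in Th0, 38.5 and 25.4 under Th17 and 55.9 and 49.1 under Treg conditions.

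**Figure D2:**
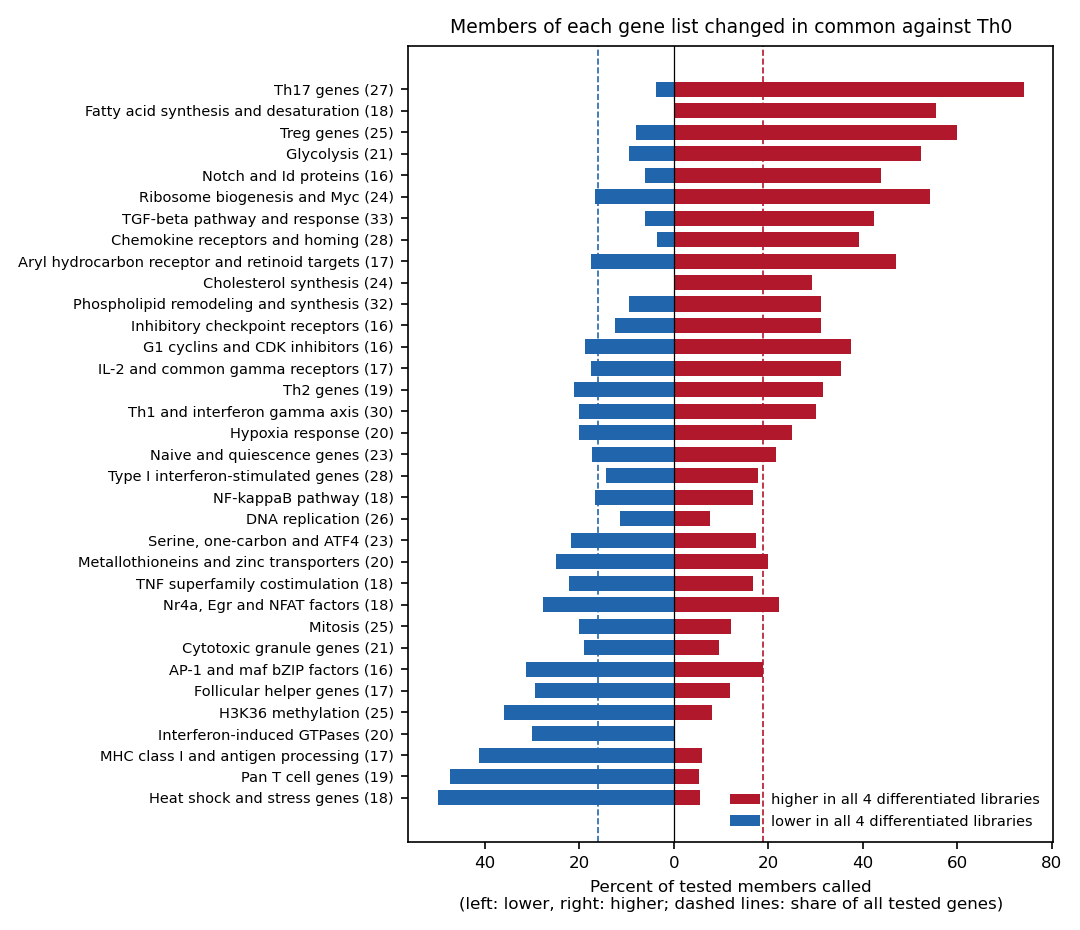
Percent of the tested members of each gene list, other than the markers of further cell types, that were shared rises (red, right) or shared falls (blue, left), with the number tested in brackets. Dashed lines mark 18.9% and 16.0%, the shares among all genes tested; Th17 genes reach 74.1% rises, and 9 of 18 heat shock genes are falls.

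Among the shared falls were 3 kinds of stress-responsive genes, encoding metallothioneins, heat shock proteins and guanylate-binding proteins. Metallothioneins are small cysteine-rich proteins that bind zinc and copper, and the factor MTF-1 switches them on through metal response elements in their promoters when free zinc rises. Heat shock proteins are chaperones that the factor HSF1 switches on through heat shock elements. The promoters of 5 falling genes are printed because these elements can be read in them. They run from 250 bases before to 50 after the annotated start, on the gene's strand, from RefSeq on GRCm38.p6. Capitals mark each match, on either strand, to TGCACNC or TGCGCNC in Mt1 (chr8:94178839-94179138), Mt2 (chr8:94172368-94172667) and the zinc exporter gene Slc30a1 (chr1:191906531-191906830). In Hsph1 (chr5:149636287-149636586, minus strand) and Hspe1 (chr1:55087898-55088197) they mark GAANNTTCNNGAA on either strand.
Mt1: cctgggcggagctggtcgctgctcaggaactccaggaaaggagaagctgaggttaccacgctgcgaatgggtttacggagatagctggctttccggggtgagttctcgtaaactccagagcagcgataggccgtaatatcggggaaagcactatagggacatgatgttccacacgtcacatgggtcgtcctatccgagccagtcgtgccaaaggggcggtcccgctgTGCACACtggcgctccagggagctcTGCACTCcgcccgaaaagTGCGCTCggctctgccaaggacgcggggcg
Mt2: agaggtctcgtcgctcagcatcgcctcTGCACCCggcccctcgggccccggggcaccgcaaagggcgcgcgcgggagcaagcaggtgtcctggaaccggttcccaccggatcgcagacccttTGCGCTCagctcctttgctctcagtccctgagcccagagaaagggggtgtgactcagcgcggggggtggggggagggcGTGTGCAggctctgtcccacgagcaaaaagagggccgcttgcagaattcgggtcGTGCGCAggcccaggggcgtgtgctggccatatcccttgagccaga
Slc30a1: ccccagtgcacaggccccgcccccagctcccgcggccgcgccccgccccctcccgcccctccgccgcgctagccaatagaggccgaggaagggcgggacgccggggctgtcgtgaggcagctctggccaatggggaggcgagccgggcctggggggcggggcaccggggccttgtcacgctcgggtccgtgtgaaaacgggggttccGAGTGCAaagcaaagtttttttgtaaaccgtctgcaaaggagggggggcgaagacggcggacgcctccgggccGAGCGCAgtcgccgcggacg
Hsph1: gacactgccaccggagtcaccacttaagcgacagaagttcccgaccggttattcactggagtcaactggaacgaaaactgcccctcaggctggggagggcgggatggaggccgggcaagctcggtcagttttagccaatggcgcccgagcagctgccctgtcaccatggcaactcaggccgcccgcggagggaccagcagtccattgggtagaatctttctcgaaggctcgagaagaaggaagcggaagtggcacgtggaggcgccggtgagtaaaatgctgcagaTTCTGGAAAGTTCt
Hspe1: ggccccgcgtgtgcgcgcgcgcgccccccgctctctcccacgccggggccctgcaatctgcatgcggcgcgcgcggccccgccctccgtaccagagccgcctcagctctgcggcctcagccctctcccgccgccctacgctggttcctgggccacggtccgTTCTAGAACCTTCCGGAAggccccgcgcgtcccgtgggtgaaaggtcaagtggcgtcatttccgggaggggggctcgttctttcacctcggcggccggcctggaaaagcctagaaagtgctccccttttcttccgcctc

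The Mt1 promoter held 3 metal response matches, that of Mt2 held 4 and that of Slc30a1 held 2. Among all 32851 promoters of the table, 25.7% held at least 1 match and 7.11% at least 2. In the zinc list 3 of the 5 shared falls held a match. Among the other genes with a promoter in the table, so did 1 of 2 shared rises (Slc39a3) and 5 of 10 that were not shared. The stricter heat shock element was found in 0.603% of all promoters. It occurred in 2 of the 6 falling heat shock genes with a promoter in the table and in 1 of 7 that were not shared, Hspd1. Hspe1 has 2 overlapping matches in 1 stretch. These matches are descriptions of the letters and show no binding.

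Mt1 measured 56.4 and 30.5 CPM in Th0, 3.76 and 6.29 under Th17 and 11.3 and 13.3 under Treg conditions (log2 fold change -2.48 ± 0.25 SE at an edgeR adjusted p of 0.00013). Mt2 measured 32.3 and 20.2 CPM in Th0, 2.06 and 3.11 under Th17 and 11.8 and 11.2 under Treg conditions (log2 fold change -2.28 ± 0.22 SE at an edgeR adjusted p of 9.9e-05). Both Th0 libraries lay above all others, and for each gene the Treg libraries lay above the Th17 libraries. Slc30a1 measured 31.2 and 39.4 CPM in Th0, 16.6 and 16.1 under Th17 and 16.5 and 17.8 under Treg conditions and lay at nearly the same level in all 4 differentiated libraries. The zinc list as a whole was mixed, with 4 shared rises, all of them Slc39 importers, and 5 shared falls among 20 genes. The importer gene Slc39a10, which is known to rise when zinc is short, fell as well (-0.55 in Th17 and -0.77 in Treg).

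Of 18 heat shock and stress genes, 9 were shared falls and 1 a shared rise (2 without Th17 replicate 3), with a median log2 fold change of -0.34 beside 0.07 for all genes. Hsph1, an HSP110 nucleotide exchange factor, measured 245 and 268 CPM in Th0, 74.96 and 106 under Th17 and 78.6 and 63.2 under Treg conditions (log2 fold change -1.68 ± 0.20 SE at an edgeR adjusted p of 0.00029). Hspe1, the mitochondrial HSP10, measured 436 and 329.9 CPM in Th0, 152 and 170.0 under Th17 and 126 and 139.9 under Treg conditions. The cytosolic chaperones followed. Hsp90aa1 measured 796 and 856 CPM in Th0, 388 and 356 under Th17 and 469 and 302 under Treg conditions, and the HSP70 cochaperone gene Dnajb1 measured 168 and 161 CPM in Th0, 63.4 and 89.1 under Th17 and 69.6 and 68.5 under Treg conditions. Inducible HSP70 is encoded by Hspa1a and Hspa1b, near-identical neighbours whose reads may be shared. Hspa1b measured 247 and 286 CPM in Th0, 32.2 and 132 under Th17 and 6.22 and 6.44 under Treg conditions, so the fall was deep in Treg and the Th17 libraries differed widely from each other. The heme oxygenase gene Hmox1 was the rise, at 10.6 and 14.01 CPM in Th0, 34.3 and 30.3 under Th17 and 64.1 and 56.03 under Treg conditions, and stood at 643 and 672 in the naive libraries.

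**Figure D3:**
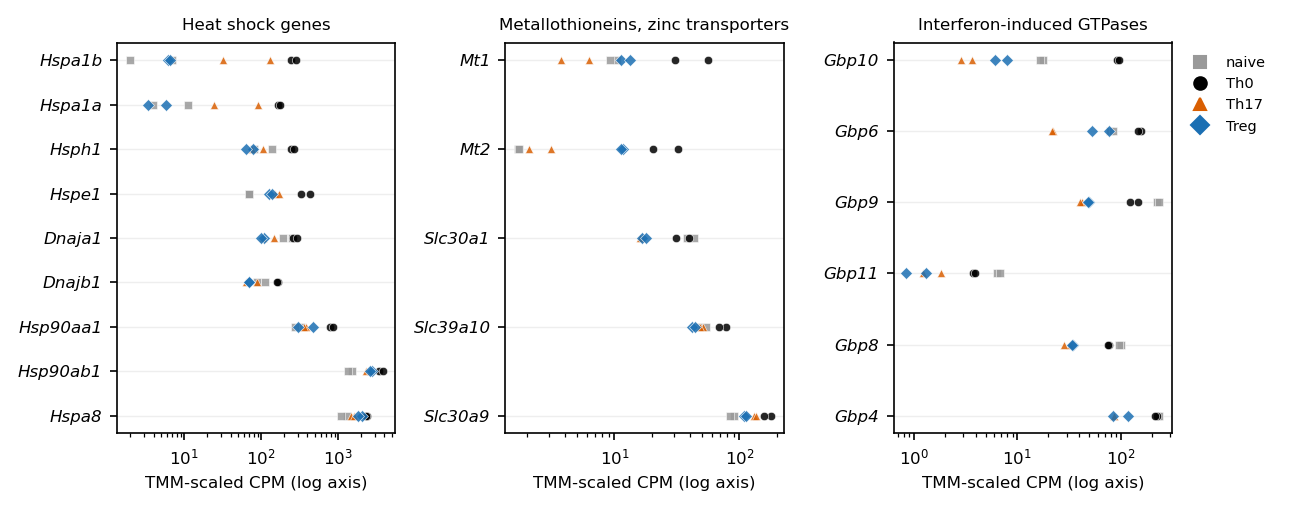
Level in every library, in TMM-scaled CPM on a log axis, of the shared falls among heat shock genes (9), metallothioneins and zinc transporters (5) and interferon-induced GTPases (6). Each point is 1 library, grey for naive; Th0 lies to the right of Th17 and Treg in every row, and the Th17 points of Hspa1b and Hspa1a lie far apart.

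Guanylate-binding proteins are GTPases induced by interferon γ that attack membranes around intracellular microbes. All 6 shared falls among 20 interferon-induced GTPases were Gbp genes of the chromosome 5 cluster (GRCm38 chr5:105014150-105346472), and there was no shared rise; leaving out a Th17 library, a Treg library or Th0 replicate 1 gave 1 or 2. Gbp10 measured 92.1 and 96.4 CPM in Th0, 2.88 and 3.64 under Th17 and 7.93 and 6.13 under Treg conditions (log2 fold change -4.30 ± 0.13 SE at an edgeR adjusted p of 8.3e-07). It was the deepest of the 12 falls named by rank, which were limited to a mean of at least 10 CPM in Th0. Gbp9 measured 123 and 147 CPM in Th0, 42.6 and 40.3 under Th17 and 49.5 and 48.2 under Treg conditions, Gbp6 156 and 149 CPM in Th0, 22.03 and 21.7 under Th17 and 76.6 and 53.5 under Treg conditions, and Gbp4 224 and 218 CPM in Th0, 86.1 and 86.04 under Th17 and 117 and 85.4 under Treg conditions. The 5 tested Gbp genes of chromosome 3 were not shared, with log2 fold changes of 0.03 in Th17 and 0.23 in Treg for Gbp2 and -0.31 in Th17 and -0.26 in Treg for Gbp5. The chromosome 5 genes resemble each other closely in sequence, and reads may be split among them. Of the 20 GTPase genes, 14 were lower in Th17 than in Treg, among them Gbp10 (Th17 minus Treg -1.13 ± 0.19 SE in log2, edgeR adjusted p = 0.0025). Genes of the Irg family were not shared, as with Iigp1 (-1.33 in Th17 and 3.45 in Treg, Th17 minus Treg -4.78 ± 0.48 SE in log2, edgeR adjusted p = 0.00018) and Ifi47 (-0.31 in Th17 and 2.12 in Treg, Th17 minus Treg -2.43 ± 0.22 SE in log2, edgeR adjusted p = 0.00011).

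MHC class I and antigen processing genes had 7 shared falls and 1 shared rise (0 without Th0 replicate 3) among 17. H2-Q7 measured 1100.0 and 1125 CPM in Th0, 696 and 772 under Th17 and 693 and 751 under Treg conditions, the peptide transporter Tap1 349 and 381 CPM in Th0, 212 and 227 under Th17 and 336 and 269.8 under Treg conditions, and the immunoproteasome subunit Psmb9 211 and 187 CPM in Th0, 109.9 and 122 under Th17 and 181 and 161 under Treg conditions. The changes were modest, and B2m was not shared (-0.22 in Th17 and 0.04 in Treg). Type I interferon-stimulated genes were near the background, with 5 shared rises (3 without either Th0 library) and 4 shared falls among 28. Rsad2, the antiviral enzyme viperin, was the steep fall at 10.6 and 9.7 CPM in Th0, 1.53 and 1.44 under Th17 and 1.64 and 1.07 under Treg conditions.

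Further leading falls were regulators and surface proteins. Nfe2l1, a transcription factor that replenishes proteasomes, measured 234 and 241 CPM in Th0, 57.5 and 59.2 under Th17 and 49.5 and 42.5 under Treg conditions (log2 fold change -2.20 ± 0.08 SE at an edgeR adjusted p of 1.2e-06). Rasgef1a, an exchange factor for Ras family proteins, measured 33.8 and 34.9 CPM in Th0, 3.76 and 5.68 under Th17 and 3.54 and 4.14 under Treg conditions. Gfi1, a zinc finger repressor of T cell and granulocyte differentiation, measured 208 and 136 CPM in Th0, 28.6 and 38.3 under Th17 and 49.3 and 63.2 under Treg conditions. The cell adhesion gene Epcam measured 11.6 and 13.1 CPM in Th0, 3.58 and 4.24 under Th17 and 2.88 and 4.6 under Treg conditions, and the long noncoding RNA Mirt1 108 and 64.6 CPM in Th0, 22.6 and 20.8 under Th17 and 17.03 and 26.1 under Treg conditions. Gpm6b, which encodes a membrane glycoprotein, measured 23.04 and 21.9 CPM in Th0, 5.23 and 6.59 under Th17 and 7.99 and 3.45 under Treg conditions, and Lypd6b, of the Ly6 family, measured 21.2 and 18.1 CPM in Th0, 5.23 and 6.51 under Th17 and 4.45 and 6.29 under Treg conditions. Naive cells held less Nfe2l1 (38.98 and 40.2 CPM) and Gfi1 (19.3 and 24.4) than the 4 differentiated libraries, about as much Rasgef1a (4.14 and 3.99), and more of Mirt1 (64.7 and 66.2) and Gpm6b (18.5 and 21.5).

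Atf4, the transcription factor of the integrated stress response, measured 564 and 492 CPM in Th0, 305 and 392 under Th17 and 243 and 247 under Treg conditions, and its target Ddit3 measured 167 and 164 CPM in Th0, 55.3 and 94.1 under Th17 and 28.6 and 40.3 under Treg conditions. Among 23 serine, one-carbon and ATF4 genes, 5 were shared falls and 4 shared rises (7 without Th17 replicate 3). The falls were 21.7% and the rises 17.4%, beside 16.0% and 18.9% of all genes tested. The amino acid transporter genes Slc3a2 (-0.57 in Th17 and -0.76 in Treg) and Slc38a2 (-0.46 in Th17 and -0.55 in Treg) fell, and Shmt1, which moves a carbon unit from serine to folate, rose (1.20 in Th17 and 1.83 in Treg).

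Sugar and lipid metabolism held more shared rises than falls. Of 21 glycolysis genes, 11 were shared rises and 2 shared falls (1 without Th0 replicate 1 or Treg replicate 2), with a median log2 fold change of 0.35. Hk2, the hexokinase that starts glycolysis in activated cells, measured 13.6 and 12.3 CPM in Th0, 148 and 98.7 under Th17 and 90.7 and 79.5 under Treg conditions (log2 fold change 2.98 ± 0.18 SE at an edgeR adjusted p of 1.4e-05). Slc16a3, the lactate exporter, measured 39.02 and 33.5 CPM in Th0, 97.8 and 68.2 under Th17 and 136 and 131 under Treg conditions, and the glucose transporter Slc2a1 28.8 and 26.02 CPM in Th0, 77.1 and 63.5 under Th17 and 61.3 and 57.4 under Treg conditions. Of 20 hypoxia response genes, 5 rose and 4 fell. Egln3, an oxygen-sensing prolyl hydroxylase, measured 21.5 and 14.8 CPM in Th0, 96.9 and 68.6 under Th17 and 55.2 and 57.3 under Treg conditions. The HIF subunit gene Hif1a fell, mostly in Treg.

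Fatty acid synthesis had 10 shared rises and no shared fall among 18 genes, and cholesterol synthesis had 7 and none among 24. Fads2, a desaturase of polyunsaturated fatty acids, measured 18.5 and 25.9 CPM in Th0, 56.3 and 54.2 under Th17 and 58.8 and 54.5 under Treg conditions, and Scd1, the desaturase that makes oleate, measured 89.9 and 115 CPM in Th0, 232 and 238 under Th17 and 366 and 398 under Treg conditions. Hmgcs1, the HMG-CoA synthase of cholesterol synthesis, measured 205 and 305 CPM in Th0, 403 and 398 under Th17 and 404 and 465 under Treg conditions. The Th0 libraries differed among themselves in these genes, as with Fasn at 186 and 279 CPM in Th0, 423 and 391 under Th17 and 381 and 362 under Treg conditions. Without Th0 replicate 1, rises in fatty acid synthesis were 5 and falls 2, and falls in cholesterol synthesis were 5. Without Th0 replicate 3, rises in cholesterol synthesis were 11, and without Th17 replicate 3 there were 2 falls. The counts for both lists thus rest on which Th0 library is used.

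Phospholipid remodeling, which the series title names beside Setd2, had 10 shared rises and 3 shared falls among 32 genes (median 0.15). Rises fell to 6 without Th0 replicate 1 and 5 without Th0 replicate 3, and falls rose to 5 without Th0 replicate 1 and 6 without Th17 replicate 3. Lpcat3, which inserts polyunsaturated chains into phospholipids, measured 26.9 and 27.1 CPM in Th0, 48.7 and 44.6 under Th17 and 49.5 and 49.1 under Treg conditions. Lpgat1, an acyltransferase, measured 50.6 and 54.1 CPM in Th0, 96.9 and 89.5 under Th17 and 104 and 99.3 under Treg conditions. The phospholipase genes Pla2g4a and Pla2g7 rose from under 0.3 CPM, with Pla2g7 at 0.198 and 0.231 CPM in Th0, 5.29 and 6.51 under Th17 and 4.91 and 3.91 under Treg conditions and 55.99 and 62.1 in the naive libraries.

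Ribosome biogenesis and Myc genes had 13 shared rises and 4 shared falls among 24, with a median of 0.51. Nolc1, a nucleolar chaperone, measured 34.5 and 30.3 CPM in Th0, 79.9 and 52.9 under Th17 and 122 and 87.9 under Treg conditions, and Bop1, a factor of the large subunit, measured 19.1 and 14.6 CPM in Th0, 43.9 and 27.04 under Th17 and 67.99 and 48.7 under Treg conditions. The abundant nucleolar proteins Ncl (-0.45 in Th17 and -0.28 in Treg) and Npm1 (-0.45 in Th17 and -0.76 in Treg) fell. Replicate 2 was the higher Th17 library in 13 of the 13 rises and the higher Treg library in 12, as with Polr1b at 9.71 and 6.47 CPM in Th0, 26.1 and 12.3 under Th17 and 31.3 and 22.3 under Treg conditions.

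Ahr, the aryl hydrocarbon receptor, senses indoles and other ligands and supports IL-22 production. Of 17 genes of this receptor and of retinoid signalling, 8 were shared rises and 3 shared falls, with a median of 1.10. Ahr measured 37.04 and 37.4 CPM in Th0, 143 and 159.6 under Th17 and 53.5 and 58.3 under Treg conditions, and its target Cyp1a1 measured 1.32 and 1.85 CPM in Th0, 6.58 and 6.97 under Th17 and 3.08 and 3.14 under Treg conditions. The retinoic acid receptor gene Rara measured 26.5 and 22.3 CPM in Th0, 83.7 and 64.99 under Th17 and 59.9 and 59.2 under Treg conditions. Of 16 Notch and Id genes, 7 were shared rises and 1 was a shared fall. Rbpj, the DNA-binding partner of Notch, measured 235 and 231 CPM in Th0, 756 and 733 under Th17 and 593 and 593 under Treg conditions (log2 fold change 1.52 ± 0.07 SE at an edgeR adjusted p of 4.5e-06), and the Notch target Nrarp measured 8.91 and 8.24 CPM in Th0, 20.1 and 18.3 under Th17 and 32.4 and 31.7 under Treg conditions. Naive cells held 102 and 106 CPM of Rbpj, less than any cultured library.

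The gene for the H3K36 methyltransferase in the series title, Setd2, was a shared fall: 256 and 296 CPM in Th0, 181 and 215 under Th17 and 169 and 168 under Treg conditions, log2 fold change -0.60 ± 0.09 SE at an edgeR adjusted p of 0.0011, with 286 and 265 in naive cells. Of 25 genes of H3K36 methylation, 9 were shared falls and 2 shared rises (1 without either Th0 library or Treg replicate 2), with a median of -0.11. Whsc1l1, the methyltransferase NSD3, measured 688 and 699 CPM in Th0, 453 and 567 under Th17 and 319.9 and 369 under Treg conditions, Ash1l 179.8 and 174 CPM in Th0, 126 and 156 under Th17 and 122 and 117 under Treg conditions, and the demethylase gene Kdm2b 118 and 124 CPM in Th0, 82.6 and 87.6 under Th17 and 91.5 and 82.6 under Treg conditions. Smyd2, a lysine methyltransferase, rose at 10.6 and 9.09 CPM in Th0, 19.03 and 14.2 under Th17 and 26.3 and 21.8 under Treg conditions. Each of these falls was less than 2-fold in the mean of both conditions.

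Cell cycle genes had no single direction. Mki67, the proliferation marker, measured 1844 and 2104 CPM in Th0, 1334 and 1582 under Th17 and 1959 and 1871 under Treg conditions and did not pass (log2 fold change -0.24 ± 0.09 SE at an edgeR adjusted p of 0.055). The value was -0.37 at an edgeR adjusted p of 0.028 without Th0 replicate 1 and -0.29 at 0.0129 without Th17 replicate 3, and over all alternatives with an edgeR, DESeq2 or voom adjusted p it ran from -0.37 to -0.17, at adjusted p = 0.00366 to 0.267. Of 26 DNA replication genes, 2 were shared rises and 3 shared falls, while 21 were lower in Th17 than in Treg. Leaving out single libraries moved these counts between 1 and 6 and between 0 and 3, for both Th0 libraries, Th17 replicate 3 and both Treg libraries. Of 25 mitosis genes, 3 were shared rises (0 without Th0 replicate 1 and 1 without Treg replicate 2) and 5 shared falls (3 without Th0 replicate 3). Kif11, the spindle motor, measured 934 and 1025 CPM in Th0, 532 and 690.3 under Th17 and 662 and 665 under Treg conditions. Of 16 G1 genes, 6 rose and 3 fell (1 without Th0 replicate 3 or Treg replicate 3). Cdkn2c, an inhibitor of cyclin D kinases, measured 28.98 and 36.4 CPM in Th0, 47.5 and 41.5 under Th17 and 91.2 and 92.98 under Treg conditions. Of 23 genes of naive and quiescent cells, 5 rose and 4 fell (7 without Th17 replicate 3). These are 21.7% and 17.4%, near the 18.9% and 16.0% of all genes tested. Klf2, which keeps T cells in circulation, measured 24.9 and 20.9 CPM in Th0, 67.9 and 53.9 under Th17 and 140.4 and 117 under Treg conditions, still far under 477 and 472 in naive cells.

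Markers of other cell types were also among the shared rises. Of 24 myeloid and dendritic cell markers, 16 were shared rises and 1, Itgam, was a shared fall. Summed over the list, levels were 80.5 and 65.0 CPM in Th0, 187 and 196 under Th17 and 194 and 158 under Treg conditions, against 5884 and 5513 in naive cells. Of the 24 markers, 5 were at 0 in Th0 replicate 1 and 9 in Th0 replicate 3. Csf1r, the macrophage growth factor receptor, measured 0.33 and 0.154 CPM in Th0, 2.53 and 3.26 under Th17 and 7.86 and 6.9 under Treg conditions, and Lyz2, lysozyme, measured 2.05 and 1.77 CPM in Th0, 8.05 and 7.65 under Th17 and 27.6 and 21.5 under Treg conditions. Among defining markers, C1qb and Mertk were at 0 in both Th0 libraries. The bound for C1qb was at least 2.27-fold higher in Th17 and 14.7-fold in Treg, and that for Mertk was at least 8.95-fold and 19.9-fold. Many of these genes passed the filter on low counts through the naive libraries, and of all shared rises 169 were at least 10 times higher in naive cells than in the differentiated ones.

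Neutrophil, mast cell and basophil markers had 9 shared rises among 14 and no shared fall. Without Kit, which carries most of the sum, their levels were 1.32 and 1.46 CPM in Th0, 10.6 and 10.8 under Th17 and 20.2 and 25.3 under Treg conditions, with 9 of 13 markers at 0 in each Th0 library. The neutrophil gene S100a9, at 0 in both Th0 libraries, was at least 5.15-fold higher in Th17 and 22-fold in Treg. B cell markers had 4 shared rises among 15 (and 1 fall without either Th0 library or Th17 replicate 2), with sums of 620 and 633 CPM in Th0, 1188 and 1379 under Th17 and 629 and 581 under Treg conditions. NK cell markers had 3 shared rises among 12 and 1 shared fall, which was lost without either Th0 library or Th17 replicate 2,, at 26.9 to 42.8 CPM in all 6 libraries. Red blood cell and platelet markers had 1 shared rise among 12 (none without Th0 replicate 1, and 1 fall without Th0 replicate 3 or Treg replicate 2), and CD8 and γδ T cell markers had 1 among 9 (none without Th0 replicate 3). The sum of the CD8 and γδ markers was 209 and 205 CPM in Th0, 193 and 208 under Th17 and 469 and 510.3 under Treg conditions, so it stood apart in the Treg libraries alone. In the naive libraries the sums were 458 and 564 CPM for neutrophil, mast and basophil markers without Kit. B cell markers summed there to 4437 and 3663 CPM, NK cell markers to 315 and 309 and pan T cell genes to 5502 and 6033. Levels given for naive cells may therefore not be those of T cells alone. Whether these marker transcripts account for any shared change was not tested.

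**Figure D4:**
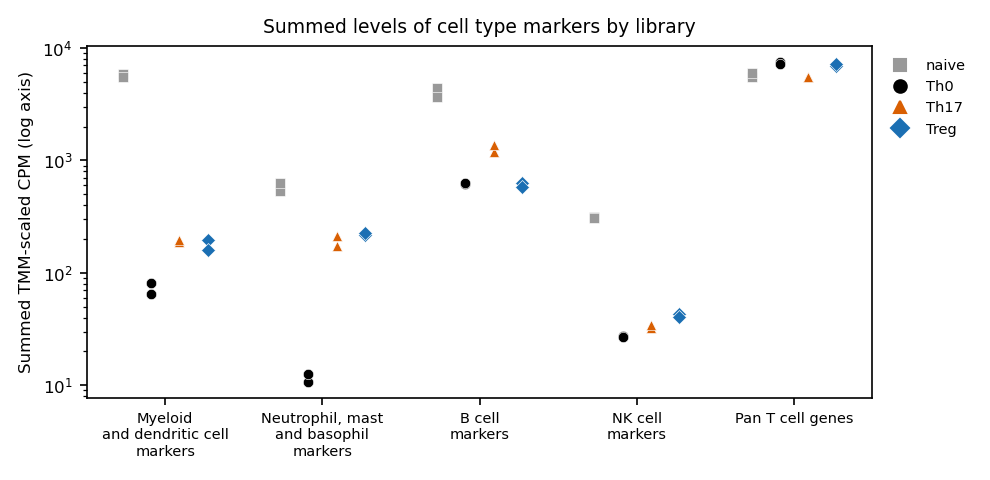
Summed level of the tested markers of 5 cell types in every library, in TMM-scaled CPM on a log axis. Each point is 1 library; myeloid markers sum to 80.5 and 65.0 CPM in Th0 and to 158 to 196 in the 4 differentiated libraries, and Kit makes up most of the neutrophil, mast and basophil sum.

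How alike the conditions were was asked with the contrast of Th17 against Treg, which uses no Th0 library but the same 4 libraries as the rule. Over all genes, 14.8% were higher and 14.5% lower in Th17 than in Treg at an edgeR adjusted p under 0.05. Of the 2776 shared rises, 240 (8.6%) were higher in Th17 and 727 (26.2%) were higher in Treg, and 1809 passed in neither direction. Of the 2353 shared falls, 633 (26.9%) were higher in Th17 and 116 (4.9%) were higher in Treg. Among shared genes that differed, most had the larger change from Th0 in Treg, for rises and for falls. Treg by itself also had more calls against Th0 among all genes tested, 25.7% higher and 20.6% lower beside 16.1% and 12.6% in Th17. The direction is therefore not read as a result about the shared genes. The 1716 genes with a difference became 717 without Treg replicate 2 and 1145 without Treg replicate 3. A difference beyond 2-fold, in either direction, was found for 84 of the 2776 shared rises and 30 of the 2353 shared falls. Of all 14690 genes tested, 278 (1.89%) were higher and 178 (1.21%) lower in Th17 than in Treg by that margin. Counting both directions, the share among rises was close to that among all genes, and the share among falls was lower. The rule selected shared genes by these same 4 libraries, and shared falls were small (median log2 fold change -0.58). Both limit how far Th17 and Treg can differ, so these shares are not read as a result. Missing the threshold does not show that the conditions act alike.

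**Figure D5:**
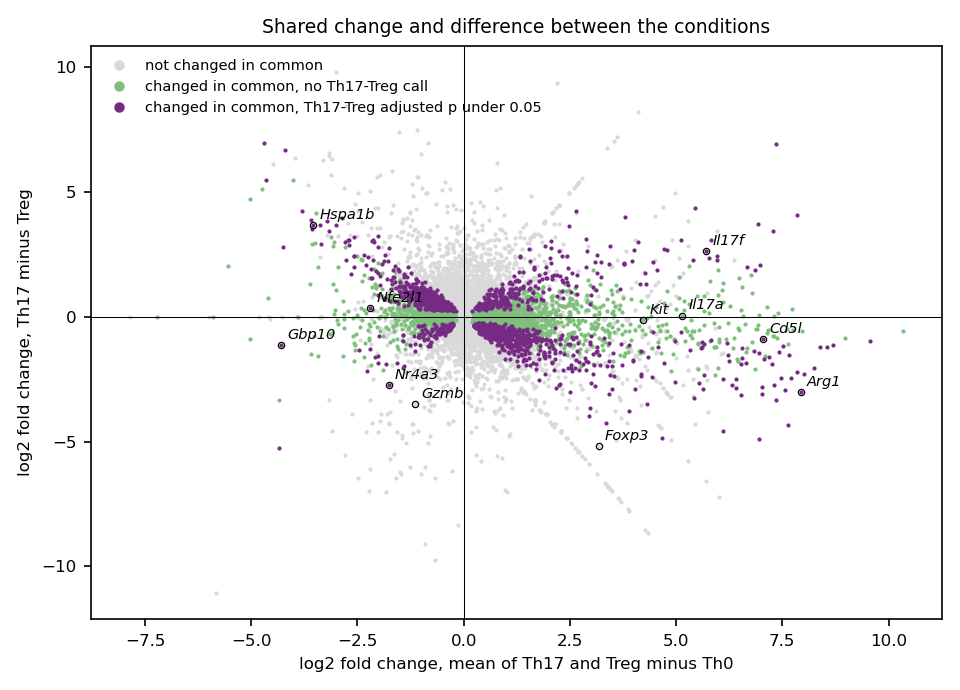
Each point is 1 of 14690 genes, with the log2 fold change of the mean of Th17 and Treg against Th0 on the horizontal axis and that of Th17 minus Treg on the vertical axis. Shared genes are green or, where Th17 and Treg differed at an adjusted p under 0.05, purple; the wedge they fill follows from the rule, and Il17a and Kit lie near 0 on the vertical axis, Il17f above it and Arg1 below.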

How the data were processed

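Per the labels' protocols, RNA was extracted with TRIzol, and Illumina HiSeq libraries were made and read by the Beijing Genomics Institute. Per the submitters' processing notes, the tools were RSEM and Bowtie2 and the builds mm10 and GRCm38.p6. Which tool did what, and whether strand was used, is not given in the sources used here. Per the file headers, the deposited table pairs a count with an FPKM value for each of 34745 genes. The counts were used as deposited. They are whole numbers, and whether they were rounded from estimates is not stated. No result here uses the deposited FPKM values.

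Counts were fitted with edgeR 4.0.16 (R 4.3.3): filterByExpr by group (14690 genes), TMM scaling, and 8 libraries in 1 quasi-likelihood fit of 4 group means (4 residual degrees of freedom). The contrast was the mean of Th17 and Treg minus Th0, with Benjamini-Hochberg adjustment over all genes. Fold changes are log2 with standard errors (SE). A permutation of 4 against 2 libraries could not pass a 0.05 threshold, so tests rest on this fit. The script was tested on simulated data. Named genes were the 12 highest and 12 lowest shared genes by the smaller of their 2 changes, at 10 CPM or more, without predicted genes, pseudogenes and receptor segments. Up to 4 genes per list and 13 fixed genes were added, and 53 further list members were named after their values were seen. Some list members are counted but not reported here by name. The 40 lists (840 entries, 838 matched) and the rule were chosen with earlier results of these data known. Coordinates are on GRCm38, and promoters were matched by symbol. Alternatives included DESeq2 1.42.0 and limma-voom (limma 3.58.1).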

Additional observations from a re-analysis of the deposited data

Results flagged for a closer look

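Among the 24 genes named by rank and the genes fixed for report, 10 had changes against Th0 that differed between the conditions, by a test of Th17 against Treg beyond 2-fold (edgeR glmTreat, adjusted over all genes). On the log2 scale, Th17 minus Treg was 2.64 for Il17f and 3.69 for Hspa1b, so both were higher under Th17 conditions. It was -3.01 for Arg1, -1.76 for Ccl6, -1.92 for Itgae, -2.17 for Mt2 and -2.74 for Nr4a3. These 7 moved the same way against Th0 in both conditions and differed in size. It was -3.48 for Gzmb, -3.21 for Ifng and -5.19 for Foxp3, none of which was a shared change. The adjusted p ran from 8.7e-06 for Foxp3 and Gzmb to 0.029 for Hspa1b, whose Th17 libraries stood at 32.2 and 132 CPM. No group had enough libraries for a search for outlying samples.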

How the results depend on the processing

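Both counts of shared genes kept within 1.5 times under RLE and upper-quartile scaling, DESeq2, limma-voom, both filters on low counts, a fit of the 6 cultured libraries, the replicate block and a call by the mean alone. With the 4 differentiated libraries as 1 group, and the naive libraries left out, they were 788 and 692, where the distance between Th17 and Treg is residual error and no Th17 against Treg value exists. With a call in each condition alone they were 1557 and 1280. Tested against a 1.5-fold change they were 946 and 441, and against a 2-fold change 424 and 114, which is a stricter question. Leaving out 1 library at a time gave 2000 to 3274 rises, 1976 to 2631 falls and 717 to 1860 shared genes that differed between Th17 and Treg, the lowest without Treg replicate 2.

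The replicate numbers pair libraries only between Th17 and Treg (2 and 3), and Th0 shares only number 3. Deviations of the same number had a Pearson correlation of 0.149 across 13019 genes. With 2 such pairs this does not establish a pairing. With the replicate block there were 2117 rises, 1786 falls and 1532 genes that differed between Th17 and Treg. Of the main calls, 3866 of 5129 were called again.

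All 24 genes named by rank were called again in every setting other than the tests against a fold, except Hspa1b with the 4 libraries as 1 group. Of 206 named shared genes, 182 were called again whichever library was left out, and 118 with the 4 as 1 group. No named gene changed direction in any setting run. Depth limits the weakest genes: a count of 0 allows up to 0.198 CPM in Th0 replicate 1 and 0.231 in Th0 replicate 3, for counting error only.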
